A study of Arabidopsis thaliana with 9 samples.

Results

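CAF1A, CAF1B, SZF1 and SZF2 are 4 Arabidopsis thaliana genes for stress-induced regulators of messenger RNA, taken here by their listed gene identifiers from 33323 genes in the count table. CAF1A (AT3G44260) and CAF1B (AT5G22250) encode deadenylases, and SZF1 (AT3G55980) and SZF2 (AT2G40140, named CZF1 in the reference annotation) encode tandem CCCH zinc finger proteins. All 4 were among the 16560 genes with enough counts to be tested. RNA of leaves 12 to 14, taken 49 days after sowing, was sequenced from 3 libraries each of hac1-1 (SALK_080380), hac1-2 (SALK_136314) and wild type Col-0 (WT). Both hac1 lines carry a T-DNA insertion in HAC1, a histone acetyltransferase gene of the CBP family, and share the Col-0 background. All plants were left untreated in dim light (28 µmol photons per m2 and s) for 20 h a day, with 4 h of darkness. The labels call the leaves of both mutants non-senescent and those of WT senescent, so genotype and senescence state cannot be told apart. The study set out to find candidate targets of HAC1, and its design names one biological replicate. The p-values therefore describe the spread among the 9 libraries alone, which may be technical.

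Shortening of the poly(A) tail is the step that usually starts the decay of a messenger RNA in the cytoplasm. CAF1 proteins are catalytic subunits of the CCR4-NOT complex and remove adenosines from the tail; after that, decapping enzymes open the transcript to degradation from its 5′ end. Tandem CCCH zinc finger proteins are best known from animals, where members such as tristetraprolin bind AU-rich elements and recruit the deadenylase complex. In Arabidopsis, CAF1A and CAF1B transcripts are induced by wounding and pathogens, and SZF1 and SZF2 transcripts by salt and by microbial elicitors.

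The 250 bases upstream of the annotated gene starts of CAF1B, SZF1 and SZF2 are shown because the 2 SZF genes share a stretch there that CAF1B lacks. They were read from the TAIR10.1 reference, each 5′ to 3′ on the gene's own strand, and capitals mark the core of the W box, the binding element of WRKY transcription factors, searched as TTGAC on both strands. The upstream windows lie at chr5:7366800-7367049 (minus strand) for CAF1B, chr3:20775970-20776219 (plus strand) for SZF1 and chr2:16771747-16771996 (plus strand) for SZF2.
CAF1B: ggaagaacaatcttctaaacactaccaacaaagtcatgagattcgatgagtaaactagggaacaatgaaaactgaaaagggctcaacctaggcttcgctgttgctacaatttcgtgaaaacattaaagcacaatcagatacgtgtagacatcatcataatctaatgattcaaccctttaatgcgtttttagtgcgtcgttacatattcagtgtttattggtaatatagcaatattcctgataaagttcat
SZF1: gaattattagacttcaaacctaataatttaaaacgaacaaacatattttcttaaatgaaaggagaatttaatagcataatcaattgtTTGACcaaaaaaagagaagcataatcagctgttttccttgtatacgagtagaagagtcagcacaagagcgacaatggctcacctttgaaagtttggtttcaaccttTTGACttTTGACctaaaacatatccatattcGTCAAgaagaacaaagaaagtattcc
SZF2: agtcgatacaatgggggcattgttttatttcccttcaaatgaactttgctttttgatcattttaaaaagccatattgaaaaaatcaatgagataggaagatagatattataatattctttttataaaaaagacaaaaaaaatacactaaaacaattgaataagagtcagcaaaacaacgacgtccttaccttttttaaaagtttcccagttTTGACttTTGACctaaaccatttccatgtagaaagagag

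SZF1 held 4 W box cores in this window and SZF2 held 2, whereas CAF1B held none. The core lies in the upstream windows of 44.9% of 27443 protein-coding genes, and 14.1% hold 2 or more. Counting back from the gene start, a pair of cores at -57 to -46 in SZF1 and at -39 to -28 in SZF2 is spaced by 2 bases in each gene. The pair belongs to a run of 19 identical bases (TTTTGACTTTTGACCTAAA), which occurs in the windows of 2 of the 27443 genes, SZF1 and SZF2 themselves. The spaced pair alone (TTGACTTTTGAC) occurs in 29 of them. The run and the spaced pair were chosen after the sequences were seen. On both strands, the rapid stress response element CGCGTT, the CGCG box ACGCGG, the G box CACGTG and the GCC box GCCGCC matched in none of the 3 windows; they occur in 2.59%, 1.76%, 6.49% and 1.87% of all windows. A match is a description of the letters, and no match says only that these letters are not in this window.

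**Figure D1:**
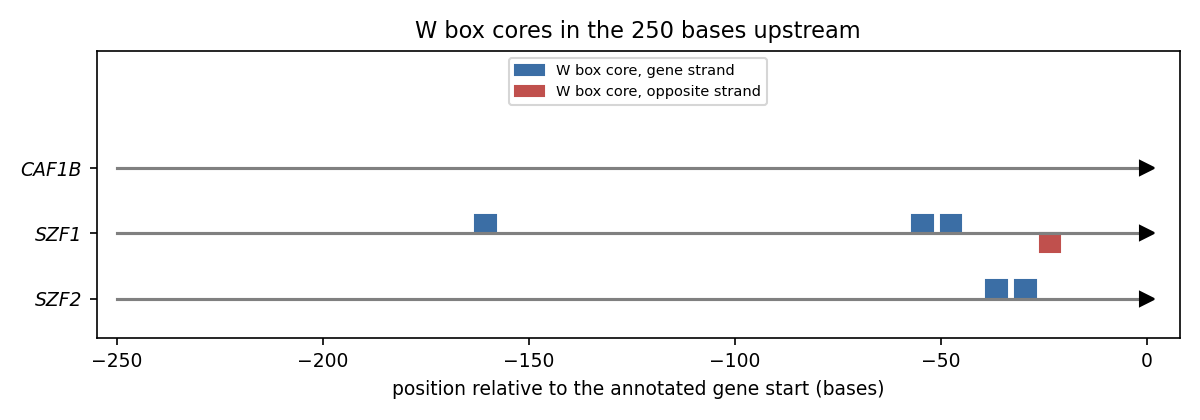
Positions of W box cores in the 250 bases upstream of CAF1B, SZF1 and SZF2; the x axis is the distance from the annotated gene start in bases, boxes above the line are on the gene's strand and boxes below it on the opposite strand. SZF1 and SZF2 each have a closely spaced pair near the start, and CAF1B has none.

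CAF1A (chromosome 3, 15952008 to 15953346) and CAF1B (chromosome 5, 7365477 to 7366799) are single-exon genes on the minus strand. SZF1 (chromosome 3, 20776220 to 20778952) and SZF2 (chromosome 2, 16771997 to 16774734) lie on the plus strand, each with 2 annotated transcripts of 2 exons. No annotated gene overlaps any of the 4. The coding sequences of CAF1A and CAF1B are identical at 81.4% of 828 aligned bases, and those of SZF1 and SZF2 at 80.4% of 1691. No other place in the nuclear chromosomes matched any of the 4 at 95% identity or more over at least 50% of its exonic length, the limit set for a near-identical copy.

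Gene levels in CPM are counts scaled to library size after its adjustment by the TMM factor of each library. Library totals ran from 5750097 to 9461600 counts, and a floor of 3 counts corresponds to 0.317 to 0.522 CPM without that factor. Such a floor covers counting error alone, because sequenced reads need not be separate molecules. HAC1, the gene that carries the insertions, stood at 65.0 ± 7.10 CPM in hac1-1, 134.8 ± 14.5 CPM in hac1-2 and 155 ± 10.5 CPM in WT (SD, n = 3 each). Its level was 2.39-fold lower in hac1-1 than in WT (edgeR adjusted p = 1.22e-08), while hac1-2 did not pass the test (log2 fold change -0.20). HAC1 counts thus check the labels of hac1-1 but not those of hac1-2, whose directions below depend on the labels alone. The summed level of 6 mesophyll genes was 5928 to 7282 CPM in hac1-1, 8709 to 9004 CPM in hac1-2 and 6257 to 6982 CPM in WT. Most of it came from CAB1, which averaged 5591, 7651 and 5353 CPM in hac1-1, hac1-2 and WT. RBCS2B and CA1 were far lower, at 19.5 and 25.6 CPM on average in WT. Of the 6 mesophyll genes, edgeR called 5 lower in hac1-1, and 1 lower and 1 higher in hac1-2. CAB1 was the gene not called in hac1-1 and the gene called higher in hac1-2. Over all tested genes, 9.12% were called lower in hac1-1, and 7.44% lower and 2.85% higher in hac1-2. Of 6 meristem and flower markers, STM, WUS, CLV3, AP1 and AP3 were at 0 counts in every library, AG reached at most 0.549 CPM, and the root marker PYK10 at most 1.73 CPM, in WT. Genes for ribosomal RNA took 13.9 to 21.0% of counts in hac1-1, 12.1 to 14.4% in hac1-2 and 13.0 to 15.7% in WT.

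The 4 genes were well expressed in these leaves, and CAF1A was one of the most abundant transcripts measured. On the per-length scale of the authors' FPKM values (fragments scaled to gene length and library size), CAF1A averaged 2077 ± 107 in hac1-1, 2411 ± 63.0 in hac1-2 and 2582 ± 228 in WT (SD, n = 3 each). It ranked 13th to 21st of 18168 genes in the 9 libraries. SZF1 followed with 782 ± 18.5 FPKM in hac1-1, 855 ± 30.2 FPKM in hac1-2 and 994 ± 57.9 FPKM in WT, at ranks 52 to 81. CAF1B averaged 242 ± 35.0, 308 ± 16.9 and 349 ± 30.1 FPKM in hac1-1, hac1-2 and WT, and SZF2 145 ± 4.04, 138 ± 4.75 and 166 ± 10.3 FPKM. In FPKM, the order of the genes was CAF1A, SZF1, CAF1B, SZF2 in every library, with no overlap between neighbours. In CPM, which leaves gene length out, SZF2 averaged 333 and CAF1B 300 in hac1-1, the reverse order. Where along a transcript the reads fell is not given in the sources used here, so levels of different genes compare only as far as the authors' gene lengths (1040 bases for CAF1A, 1247 for CAF1B, 2153 for SZF1 and 2310 for SZF2) describe the sequenced part.

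In hac1-1 leaves, 3 of the 4 transcripts were lower than in WT by 1.28 to 1.49-fold, and the 4 hac1-1 to WT differences had the same sign. CAF1B, SZF1 and CAF1A fell, in descending order of their fitted differences, and SZF2 did not pass the test. Across all tested genes, edgeR called 9.12% lower in hac1-1 and 12.6% in either direction. Among the 1716 genes that averaged 100 CPM or more, where all 4 members belong, 20.3% were called lower. The members were chosen with earlier results of these data known, so setting their count beside such shares, here and below, does not test them as a set. The median log2 fold change was -0.38 over the 4 genes and 0.02 over all tested genes. In bulk tissue, fewer cells of a type and less RNA per cell cannot be told apart. The summed level of the phloem markers SUC2 and APL was 57.0 to 61.7 CPM in hac1-1, 58.8 to 64.8 CPM in hac1-2 and 88.8 to 98.9 CPM in WT, and that of FAMA, MYB60 and GL1, markers of guard cells and trichomes, was 23.7 to 28.3, 19.5 to 20.0 and 27.9 to 37.1 CPM. GL1 (MYB0) was at 0 counts in both mutants and had 3 in WT. EdgeR called SUC2 lower in both mutants, as were 5.31% of all tested genes, and FAMA and MYB60 lower in hac1-2, as were 7.44%. The part of these and of the mesophyll markers in the results on the 4 genes was not tested.

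CAF1A, whose protein removes poly(A) tails and takes part in defence, measured 2173, 2254 and 2020 CPM in hac1-1 replicates 1 to 3, 2395, 2575 and 2395 CPM in hac1-2, and 2743, 2509 and 3027 CPM in WT. Each hac1-1 library lay below each WT library, while the range of hac1-2 overlapped that of WT through hac1-2 replicate 2 and WT replicate 2. In the edgeR quasi-likelihood test, CAF1A fell by 0.36 on the log2 scale in hac1-1 (SE 0.10, adjusted p = 0.0138), a level 1.28-fold lower. This call was lost without hac1-1 replicate 3 (adjusted p = 0.0878), without WT replicate 3 (0.102) and on log2 FPKM values (0.105 to 0.129). In hac1-2 the log2 fold change against WT was -0.17 (95% interval -0.37 to 0.03, edgeR adjusted p = 0.338).

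CAF1B, the less abundant deadenylase gene, measured 341, 291 and 267 CPM in hac1-1, 400.3, 371 and 357 CPM in hac1-2, and 446, 406 and 488 CPM in WT. In CPM, the 3 genotypes formed 3 separate ranges, with hac1-1 lowest and WT highest. In FPKM, hac1-2 and WT overlapped: hac1-2 replicate 1 (328) lay above WT replicate 2 (322). How many of all tested genes form 3 separate ranges was not counted. The log2 fold change of CAF1B in hac1-1 was -0.58 (SE 0.11, edgeR adjusted p = 0.000532), a level 1.49-fold lower. The call held under every alternative that was run, with a largest adjusted p of 0.0112. In hac1-2 the log2 fold change was -0.25 (95% interval -0.48 to -0.02), which missed the threshold after adjustment over all genes (edgeR adjusted p = 0.174).

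SZF1, whose transcript is induced by salt and elicitors, measured 1671, 1670.4 and 1679 CPM in hac1-1, 1846, 1874 and 1690 CPM in hac1-2, and 2192, 2062 and 2341 CPM in WT. Both mutants lay wholly below WT, and the hac1-1 libraries differed by less than 10 CPM. SZF1 fell by 0.39 on the log2 scale in hac1-1 (SE 0.10, edgeR adjusted p = 0.00559), a call that held under every alternative, with a largest adjusted p of 0.0427. In hac1-2 the log2 fold change was -0.29 (95% interval -0.48 to -0.09, edgeR adjusted p = 0.0571), close to the threshold: it passed with DESeq2 (adjusted p = 0.0111), with the replicate number as a block (0.0310), and without hac1-1 replicate 2 (0.0438) or WT replicate 2 (0.0384).

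SZF2, the paralog of SZF1, measured 335, 341 and 324 CPM in hac1-1, 309, 308 and 315 CPM in hac1-2, and 379, 382 and 421 CPM in WT. It was the member lowest on average in hac1-2 rather than in hac1-1, and the 3 ranges did not overlap in CPM. In FPKM the mutant ranges overlapped: hac1-2 replicate 3 (143) lay above hac1-1 replicate 3 (141). The share of all tested genes with 3 separate ranges was not counted. SZF2 was 1.27-fold lower in hac1-2 than in WT (log2 fold change -0.34, SE 0.10, edgeR adjusted p = 0.0249). Without any single hac1-2 library, or WT replicate 1 or 3, the adjusted p rose to between 0.0504 and 0.134, and the call was also lost when counts were scaled by library size alone (0.0930) or when log2 FPKM values were tested (0.0846 to 0.0901). In hac1-1 its log2 fold change was -0.24 (95% interval -0.45 to -0.04, edgeR adjusted p = 0.117), past the threshold with DESeq2 alone among the alternatives (adjusted p = 0.0478).

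**Figure D2:**
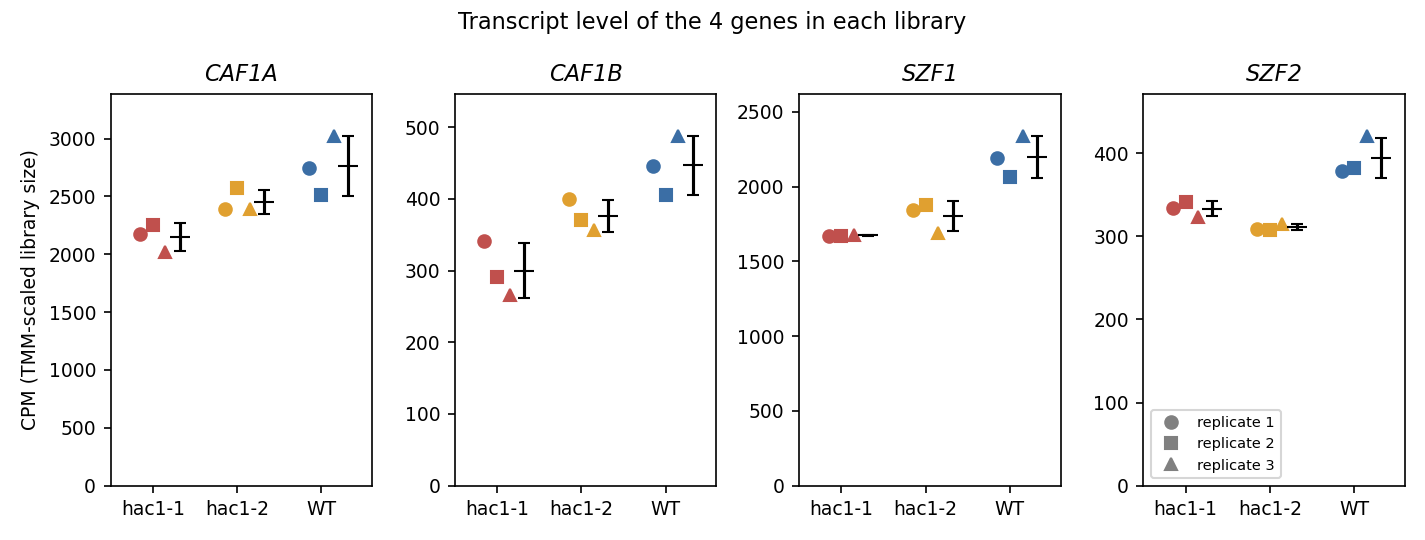
Level of each gene in CPM with TMM-scaled library sizes (y axis, from 0) by genotype (x axis); each point is a library, its shape the replicate number, and the bar is the mean ± SD of 3 libraries. WT libraries are highest on average in every panel, and SZF2 alone has its lowest mean in hac1-2 (311 CPM, against 333 CPM in hac1-1).

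In hac1-2 leaves, 1 of the 4 genes was called lower, SZF2, where 7.44% of all tested genes and 14.2% of those averaging 100 CPM or more were called lower, and 10.3% of all genes in either direction. Of the genes called in hac1-2, 72.3% were lower, a share of 57.8% when counts were scaled by library size alone and 62.0% for log2(FPKM + 1) values. The median log2 fold change of the 4 genes was -0.27, against 0.02 over all tested genes. In CPM, CAF1B, SZF1 and SZF2 had all hac1-2 libraries below all WT libraries, an arrangement found for 15.5% of tested genes. In hac1-1 the 4 genes all showed it, where 15.7% of tested genes did. In FPKM, CAF1B did not show it in hac1-2. No member was called lower in both mutants by edgeR, where 5.31% of tested genes were; 3 of the 4 had an unadjusted p under 0.05 in both, and DESeq2 called 2, SZF1 and SZF2. Both mutant comparisons use the same WT libraries, so their shared direction is not independent, and WT replicate 3 was the highest of the 9 libraries for each of the 4 genes.

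Over both mutants together, CAF1B was 1.33-fold, SZF1 1.27-fold, SZF2 1.22-fold and CAF1A 1.20-fold lower than in WT (edgeR adjusted p = 0.00271, 0.00452, 0.0192 and 0.0347). All 4 were thus called, where 10.2% of all tested genes and 20.4% of those averaging 100 CPM or more were called lower, and 13.9% of all genes in either direction. With the members chosen when earlier results of these data were known, this count is not a test of the 4 as a set. In CPM, CAF1B, SZF1 and SZF2 had all 6 mutant libraries below all WT libraries, as did 9.82% of tested genes. In FPKM, CAF1B did not, because hac1-2 replicate 1 (328) lay above WT replicate 2 (322). Without WT replicate 3, CAF1A (adjusted p = 0.249), SZF1 (0.0525) and SZF2 (0.148) were not called; the CAF1A call was lost too without hac1-1 replicate 3 (0.0852), hac1-2 replicate 1 (0.0724) or 3 (0.0638) and WT replicate 1 (0.105).

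Set directly against each other, hac1-2 and hac1-1 leaves did not differ by a called amount in any of the 4 genes, where edgeR called 2.84% of all tested genes; 1 had an unadjusted p under 0.05, and DESeq2 called 0. CAF1B stood at 376 ± 22.1 CPM in hac1-2 and 300 ± 38.2 CPM in hac1-1 (SD, n = 3 each), a log2 difference of 0.33 (95% interval 0.10 to 0.55, edgeR unadjusted p = 0.00663, adjusted p = 0.121). CAF1A stood at 2455 ± 104 CPM in hac1-2 and 2149 ± 119 CPM in hac1-1, a log2 difference of 0.19 (95% interval -0.01 to 0.40, edgeR adjusted p = 0.384). For SZF1 the difference was 0.11 (95% interval -0.09 to 0.30) and for SZF2 -0.10 (95% interval -0.30 to 0.10). These intervals leave room for differences of either sign in SZF1 and SZF2, so a p above the threshold does not show that the 2 lines were alike. In order of mean level, CAF1A, CAF1B and SZF1 ran hac1-1, hac1-2, WT from low to high, an order held by 18.6% of tested genes, whereas SZF2 ran hac1-2, hac1-1, WT.

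**Figure D3:**
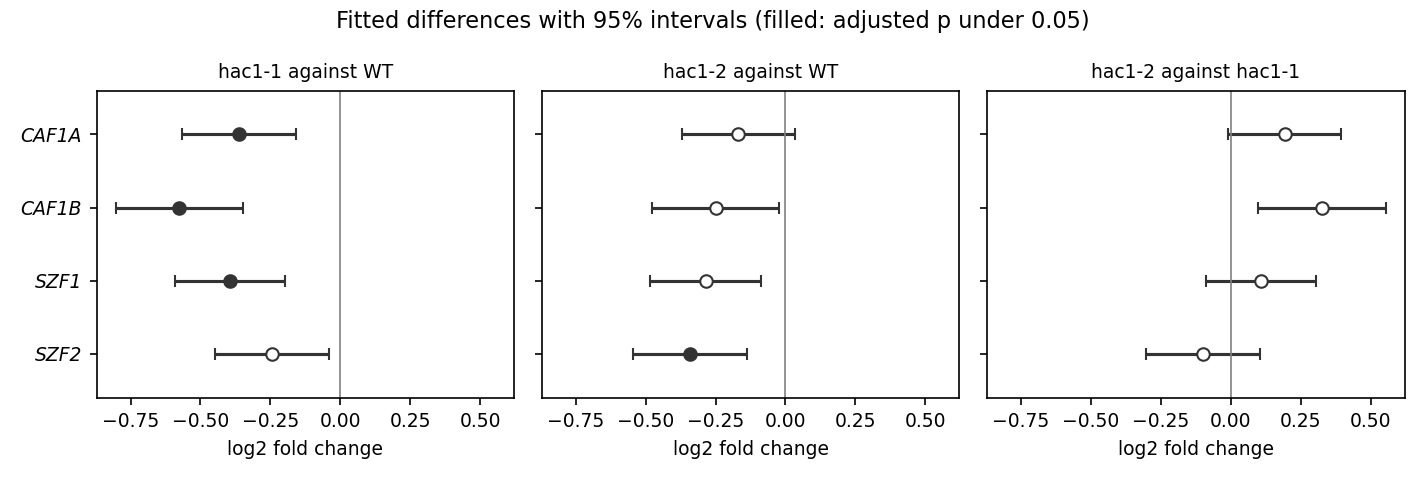
Fitted log2 fold changes (x axis) of the 4 genes (y axis) in 3 comparisons, with 95% intervals from the edgeR fit; filled points passed an adjusted p of 0.05. All 8 differences from WT lie below 0, and none of the differences between hac1-2 and hac1-1 is filled.

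Within each pair, 1 gene supplied most of the transcript, and in hac1-1 the balance stood to opposite sides of WT in the 2 pairs. A permutation test of 3 libraries against 3 cannot give a p under 0.1, so it cannot decide this for hac1-1 alone. The FPKM ratio of CAF1A to CAF1B, which does not depend on library scaling, was 7.63, 9.29 and 9.08 in hac1-1, 7.17, 8.33 and 8.04 in hac1-2, and 7.38, 7.41 and 7.43 in WT. The WT ratios were nearly equal, all hac1-1 ratios were above them, and the hac1-2 ratios lay on both sides. Both mutants together differed from WT by 0.15 on the log2 scale, which did not pass the threshold. The two-sided exact permutation p over 84 splits was 0.143, and 0.286 after adjustment over the 2 ratios. The SD of the log2 ratio was 0.155 in hac1-1, 0.113 in hac1-2 and 0.00467 in WT (n = 3 each). Hac1-2 replicate 1 held the lowest ratio, and without it every mutant ratio lay above every WT ratio. The exact permutation p was then 0.0357, the smallest that so few libraries can give. That p was not adjusted over the 2 ratios.

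The FPKM ratio of SZF1 to SZF2 was 5.36, 5.25 and 5.57 in hac1-1, 6.40, 6.52 and 5.75 in hac1-2, and 6.21, 5.79 and 5.96 in WT. All hac1-1 ratios lay below all those of hac1-2 and WT, which overlapped each other. For both mutants against WT the log2 difference was -0.05 (two-sided exact permutation p = 0.548, adjusted over the 2 ratios 0.548). Taken singly, the hac1-1 to WT difference was -0.15 and the hac1-2 to WT difference 0.055 (two-sided exact permutation p = 0.1 and 0.5), and hac1-2 exceeded hac1-1 by 0.21 (p = 0.1), where 0.1 is the smallest p that 3 libraries against 3 can give.

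**Figure D4:**
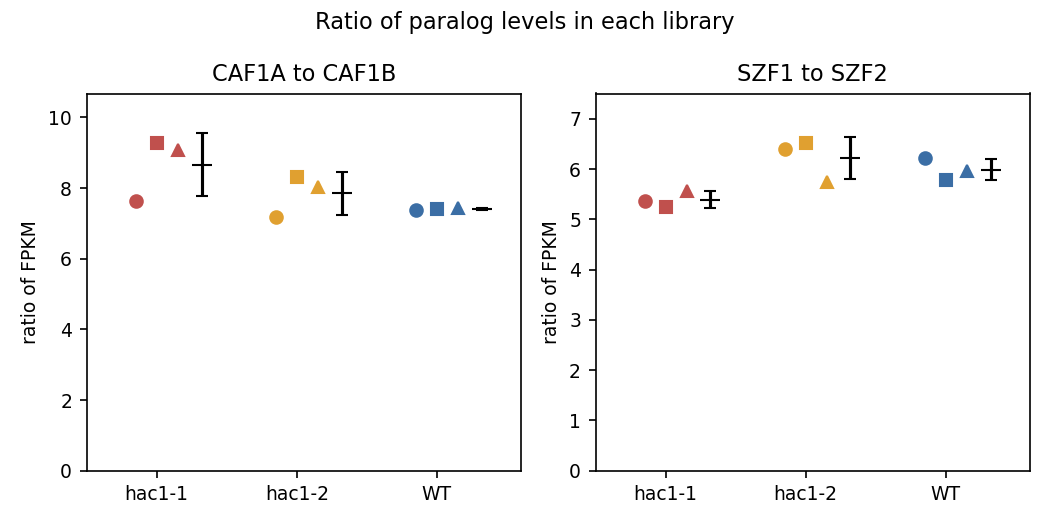
FPKM ratio of CAF1A to CAF1B (left) and of SZF1 to SZF2 (right) on the y axis, from 0, by genotype; points are libraries and bars the mean ± SD of 3. In hac1-1 the CAF1 ratio averages 8.67, against 7.41 in WT, and the SZF ratio 5.39, against 5.99 in WT.

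CAF1A and CAF1B accounted for most of the CAF1 transcript in the leaf. In summed FPKM over the 8 of 11 family genes listed in the FPKM table, the pair made up 92.4 ± 0.289% in hac1-1, 94.0 ± 0.584% in hac1-2 and 93.9 ± 0.448% in WT (SD, n = 3 each). The rest came mainly from AT5G10960, at 125 ± 12.0, 117 ± 10.1 and 125 ± 4.96 FPKM in hac1-1, hac1-2 and WT. None of the 6 tested genes among the 9 other family members was called in either mutant, although 1 in hac1-1 and 2 in hac1-2 had an unadjusted p under 0.05 in the edgeR test, and DESeq2 called 0 in both. Over all tested genes edgeR called 12.6% in hac1-1 and 10.3% in hac1-2, so a count of 0 among 6 is near the share of any genes. The nearest to a call was AT1G61470, whose log2 fold change was -0.48 in hac1-1 and -0.53 in hac1-2 (edgeR adjusted p = 0.165 and 0.130). AT2G32070 had a log2 fold change of -0.30 in hac1-2 (edgeR adjusted p = 0.222). AT1G27820, AT1G27890 and AT3G44240 had 2, 1 and 0 counts over all 9 libraries and were not tested.

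SZF1 and SZF2 made up 77.0 ± 0.537% of the summed FPKM of 10 of 11 tandem zinc finger (TZF) genes in hac1-1, 76.6 ± 0.636% in hac1-2 and 80.1 ± 0.446% in WT (SD, n = 3 each). Of the other 9 TZF genes 8 were tested, and 1 was called, in hac1-1, a share near the 12.6% of all tested genes called there. In hac1-2 none was called, where 10.3% of all tested genes were; 0 of the 8 had an unadjusted edgeR p under 0.05, and DESeq2 called 0. The gene called was TZF1 (AT2G25900, ATCTH in the reference annotation), which stood at 93.7 ± 19.9 CPM in hac1-1, 137.5 ± 21.2 CPM in hac1-2 and 152 ± 21.5 CPM in WT. It was 1.63-fold lower in hac1-1 than in WT (edgeR adjusted p = 0.000829), did not pass in hac1-2 (log2 fold change -0.15, edgeR adjusted p = 0.591), and was 1.47-fold higher in hac1-2 than in hac1-1 (edgeR adjusted p = 0.0289), where 1.86% of tested genes were called higher. The difference between the lines was not called without hac1-1 replicate 2 or 3, hac1-2 replicate 1 or 2, or on log2 FPKM values (adjusted p 0.0900 to 0.175). The median log2 fold change of the 8 was 0.07 in hac1-1 and -0.10 in hac1-2. SOM, a regulator of light-dependent seed germination, had 0 counts in both mutants and 6 in the WT libraries, and was not tested.

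**Figure D5:**
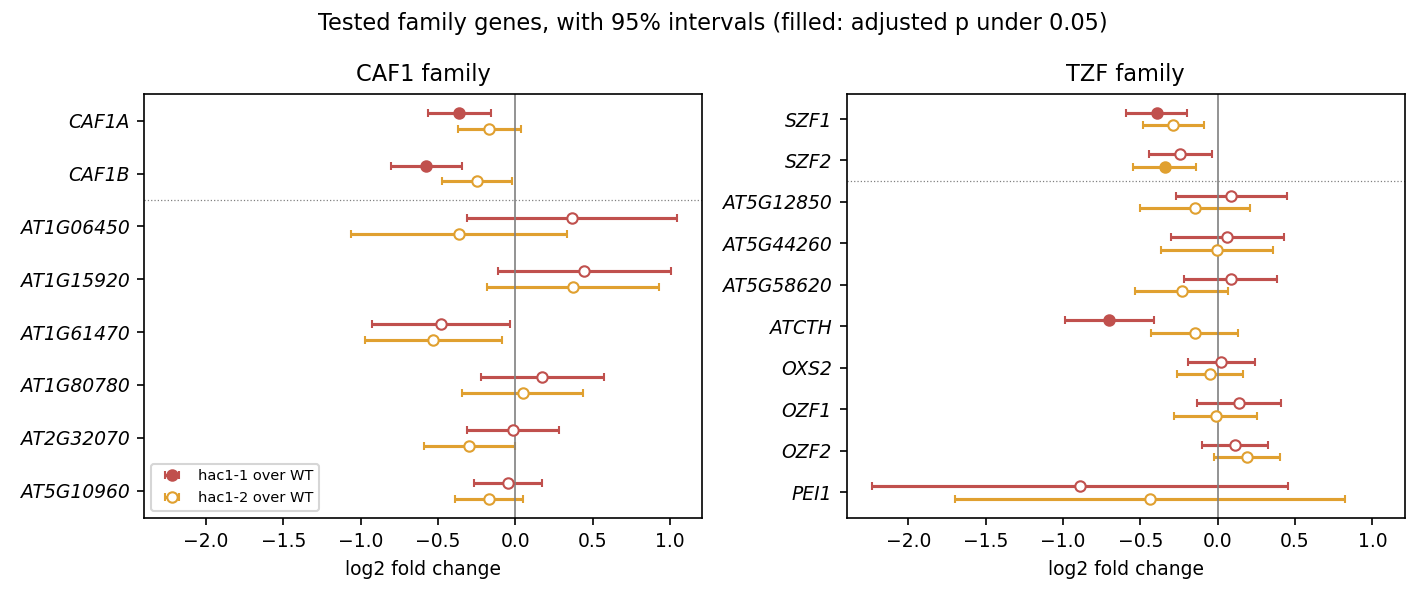
Fitted log2 fold changes over WT (x axis) with 95% intervals for all tested CAF1 (left) and TZF (right) genes (y axis), with the 4 members above the dotted line; filled points passed an adjusted p of 0.05. Outside the members only ATCTH in hac1-1 is filled, and PEI1, at 0.894 CPM in hac1-1, 1.26 CPM in hac1-2 and 1.74 CPM in WT, has the widest intervals.

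In the rest of the deadenylation and decay machinery, 1 gene was called in each mutant, and both were higher than in WT, as were 3.51% of all tested genes in hac1-1 and 2.85% in hac1-2. Of 13 tested CCR4-NOT subunit genes, 0 were called in hac1-1 and 1 was called higher in hac1-2; in hac1-1, 1 had an unadjusted edgeR p under 0.05 and DESeq2 called 0. The one called was AT5G12980, an Rcd1-like protein gene of the CAF40 type, at 14.4 ± 2.86 CPM in hac1-1, 14.9 ± 1.63 CPM in hac1-2 and 9.66 ± 1.33 CPM in WT (log2 fold change 0.64 in hac1-2, edgeR adjusted p = 0.0456). It overlaps an antisense gene, and the counting strand is not given, so its counts are uncertain; the call was lost without any single hac1-2 or WT library (adjusted p 0.0576 to 0.203). Of 16 tested genes for decapping and 5′ to 3′ decay, 1 was called in hac1-1 and 0 in hac1-2, where 2 had an unadjusted p under 0.05 in the edgeR test and DESeq2 called 0. VCS, the scaffold of the decapping complex, rose to 131 ± 5.97 CPM in hac1-1, against 95.3 ± 3.43 CPM in WT (log2 fold change 0.46, edgeR adjusted p = 0.00320), with a largest adjusted p of 0.0219 over the alternatives.

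Genes that handle the poly(A) tail outside the complex had no called member among 5 tested, with 0 of them under an unadjusted p of 0.05 in hac1-1 and 1 in hac1-2 in the edgeR test, and DESeq2 called 0 in both. This count is near the share over all tested genes, 12.6% in hac1-1 and 10.3% in hac1-2. PAB4, a poly(A)-binding protein gene, had a log2 fold change of 0.29 in hac1-2 (edgeR adjusted p = 0.214). AHG2, which encodes the poly(A) ribonuclease PARN, stood at 6.82 ± 3.43 CPM in hac1-1, 5.54 ± 1.83 CPM in hac1-2 and 4.92 ± 1.04 CPM in WT (log2 fold change 0.46 in hac1-1, edgeR adjusted p = 0.452), and without hac1-1 replicate 3 the log2 fold change was -0.0042. The calmodulin-binding CAMTA factors, transcription factors of rapid stress responses, had 0 of 6 called in either mutant and 0 with an unadjusted p under 0.05 in the edgeR test, and DESeq2 called 0, again near the 12.6% and 10.3% of all tested genes. The log2 fold change of CAMTA5 (AT4G16150) was 0.21 in hac1-1 and 0.13 in hac1-2, and AT1G67310 had -0.18 in hac1-2.

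The profiles of the members across the 9 libraries were then compared with those of 12830 other tested genes that averaged 5 CPM or more, by the root mean square difference of gene-centred log2 CPM. This measure is small for genes that vary in the same libraries by the same amount, and all points share library and depth. The distance of all these genes to the mean profile of the 4 members had a median of 0.289, and 74 genes lay within 0.1. Nearest were the hexose transporter gene STP4 (0.045), the matrixin-type metalloproteinase gene AT1G24140 (0.047), AT5G24690, which encodes a DUF3411 protein (0.058), the ethylene response factor gene ERF2 (0.060), the lectin receptor kinase gene AP4.3A (0.063) and AT2G30020 (0.064), which encodes the wound-induced protein phosphatase AP2C1.

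Among these, AT2G30020 averaged 1016 ± 21.4 CPM in hac1-1, 1086 ± 69.1 CPM in hac1-2 and 1335 ± 54.1 CPM in WT (SD, n = 3 each). ERF2 averaged 242 ± 11.4 CPM in hac1-1, 248 ± 10.8 CPM in hac1-2 and 314 ± 23.1 CPM in WT. These genes were chosen for their likeness to the members in the same libraries, so their lower levels in both mutants follow from that choice. Their edgeR results are therefore not separate evidence and are not given. AT5G24690, AP4.3A, NF-YC4 and PP2A-4 each overlap an antisense gene, so their counts are uncertain. For single members, the nearest genes were NF-YC4, a histone-fold transcription factor subunit gene, for CAF1A (0.059), the hydrolase gene AT2G41250 for CAF1B (0.074), AT1G24140 for SZF1 (0.037) and the protein phosphatase gene PP2A-4 for SZF2 (0.060). Among the members themselves, CAF1A and SZF1 were closest (0.074), SZF1 and SZF2 lay at 0.103 and CAF1A and CAF1B at 0.128, while CAF1B and SZF2 were farthest apart (0.210). Seen from CAF1B, the nearest member was its paralog CAF1A (0.128, against 0.137 to SZF1). For SZF2 it was SZF1 (0.103, against 0.132 to CAF1A). Over all the genes compared, however, the paralogs were not each other's nearest profiles. Of the other genes, 268 lay nearer to CAF1A than CAF1B did, and 91 lay nearer to SZF1 than SZF2 did.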

How the data were processed

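Libraries were made by breath adapter directional sequencing, per the labels' protocols. The authors deposited raw read counts per gene and FPKM values, made against genome build TAIR10, per the submitters' processing notes; aligner, counting program, strand setting and annotation are not given in the sources used here. Deposited FPKM values equal count over library total and a gene length (whole in 100% of genes within 0.001), and the largest FPKM of each listed gene is 1.00007 or more. Coordinates, gene models and sequences are from RefSeq's annotation of TAIR10.1; the upstream window of CAF1A is not reported here.

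Counts were filtered (edgeR 4.0.16 filterByExpr, minimum count 10), TMM-scaled and tested with edgeR's quasi-likelihood test in R 4.3.3 over all 9 libraries (biological coefficient of variation 13.7%), with Benjamini-Hochberg adjustment over all 16560 genes and calls under 0.05. Paralog ratios were tested by exact permutation (SciPy 1.17.1). Copies were searched with BLAST 2.17.0 and coding sequences aligned with Biopython 1.88. The edgeR script was tested on simulated data. Alternatives were DESeq2 1.42.0, other scalings, no filter, limma 3.58.1 on log2 FPKM values, 2-group fits, the replicate block and leaving out each library.

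The members and lists were chosen with earlier results of these data known. Named from the lists were called genes, or else the 2 with the smallest p, and from the profile comparison the 6 genes nearest to the mean and the nearest to each member.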

Additional observations from a re-analysis of the deposited data

How the results depend on the processing

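Every log2 fold change of the 4 genes kept its sign under every alternative run, in the comparisons of each mutant and of both mutants with WT and of hac1-2 with hac1-1. Under alternatives other than leaving out a library, these calls changed. CAF1A in hac1-1 was lost on log2 FPKM values (-0.31 with either pseudocount or filter). SZF2 in hac1-2 was lost with library size only (-0.27) and on log2 FPKM values (-0.27), and SZF2 in hac1-1 was gained with DESeq2 (-0.24). SZF1 in hac1-2 was gained with DESeq2 (-0.29) and with the replicate block (-0.29). Over both mutants, CAF1A was lost with library size only (-0.21) and on log2 FPKM values (-0.20), SZF2 with library size only (-0.23) and on log2 FPKM values (-0.23), and SZF1 on log2(FPKM + 1) of all genes (-0.28). Leaving out single libraries gave ranges of -0.43 to -0.29 for CAF1A, -0.68 to -0.50 for CAF1B, -0.44 to -0.35 for SZF1 and -0.27 to -0.19 for SZF2 in hac1-1. In hac1-2 they were -0.24 to -0.10, -0.32 to -0.18, -0.33 to -0.24 and -0.37 to -0.29, and over both mutants -0.33 to -0.19, -0.48 to -0.34, -0.39 to -0.29 and -0.32 to -0.24. The log2 ratio of CAF1A to CAF1B in both mutants against WT ranged from 0.12 to 0.19 without single libraries, and that of SZF1 to SZF2 from -0.08 to -0.02; the SZF ratio was 0.055 in hac1-2 alone. AHG2 in hac1-1 ranged from -0.0042 without hac1-1 replicate 3 to 0.72 without hac1-1 replicate 1. The cause of these changes was not tested.

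Genes called between hac1-2 and hac1-1 numbered 470, 721 without a filter, 715 with the replicate block, 251 to 260 on log2 FPKM values (260, 251 and 252), and 204 to 548 without single libraries. Same-numbered libraries deviated together weakly (correlations 0.01 to 0.14 across genes), and each correlated best with its own number. No label says that the numbers mark a shared batch, so the main fit did not pair them. With the replicate number as a block, edgeR called 2511 genes in hac1-1 and 2054 in hac1-2, against 2092 and 1704 in the main fit. Whether same-numbered libraries shared a batch was not tested. The block left every other call of the 4 genes as it was; in this balanced design it cannot move the paralog ratios. Depth limited the rarest genes: PEI1 had 19, 31 and 36 counts in all in hac1-1, hac1-2 and WT.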
